A study of Homo sapiens with 7 samples.

Results

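Insulin-like growth factor (IGF) binding proteins and the receptors and adaptors of insulin and IGF signalling are described here in the breast cancer line MDA-MB-231, a human line labelled as triple-negative. The 10 genes were given as a named list, comprising the binding protein genes IGFBP3, IGFBP4, IGFBP6 and IGFBP7, the antisense RNA gene IGFBP7-AS1, the receptor genes IGF1R, IGF2R and INSR, and the adaptor genes IRS1 and IRS2. They are 10 of the 60675 Ensembl genes in the count table, and all 10 were among the 16583 genes that passed the filter on low counts. The genes were chosen by family with their siDEPDC1 over siCTL fold changes already known, so the values that follow describe these libraries and no test is claimed for the 10 genes.

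IGFs and insulin are secreted hormones that activate the tyrosine kinase receptors IGF1R and INSR, which phosphorylate the IRS adaptors and so recruit PI3-kinase and the AKT and mTOR branches of signalling. IGFBP proteins bind IGFs outside the cell and can hold them back from, or deliver them to, the receptors. IGFBP7 is a distant relative that binds IGFs weakly, and IGF2R clears IGF2 and also carries lysosomal enzymes tagged with mannose 6-phosphate.

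RNA was sequenced from cells transfected with siRNA against DEPDC1 (siDEPDC1, labelled DEPDC1 KD, n = 4 libraries) or with control siRNA (siCTL, labelled DEPDC1 WT, n = 3 libraries). Both groups received 5 µl of 20 µM siRNA with Lipofectamine RNAiMAX in medium with serum, had the medium changed after 8 h, and were harvested on day 2. The labels name neither the siRNA sequence nor whether it was a pool, and they do not say that replicates came from separate cultures, so the errors may be technical only. Totals were 7690583 to 13483305 counts in siDEPDC1 and 11704246 to 15360409 counts in siCTL libraries.

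The target checked the labels, with DEPDC1 at 13.3 ± 1.43 CPM in siDEPDC1 and 118 ± 3.20 CPM in siCTL libraries (SD, n = 4 and 3), a log2 fold change of -3.15 ± 0.075 (SE). CPM here means library-size scaled counts (CPM) computed with edgeR's TMM factors. The mesenchymal genes VIM, CD44 and AXL were abundant in every library, while ESR1 and PGR stayed below 1 CPM and SPARC, a further mesenchymal marker, was near 0. Of the other 3 genes listed as low or absent in the line, ERBB2 was at 66.0 CPM in siDEPDC1 and 64.5 CPM in siCTL libraries, EPCAM at 11.6 CPM in siDEPDC1 and 10.4 CPM in siCTL libraries, and CDH1, called lower, at 0.372 CPM in siDEPDC1 and 1.11 CPM in siCTL libraries. Of 7 markers of other cell types 1 was at 0 in every library, and their summed level was 40.6 to 49.5 CPM in siDEPDC1 and 27.9 to 30.5 CPM in siCTL libraries, with COL1A1 called higher. Their part in the results below was not tested.

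The largest falls among the 10 genes were at IGFBP7 and IGFBP7-AS1, and a sequence feature of IGFBP7 is shown first. The 7-letter word GATAACT was taken from an earlier examination of these same libraries, in which it was picked for its frequency in the genes that fell most, IGFBP7 among them, so its presence supports nothing here. It was searched on the sense strand of all annotated GENCODE 29 transcripts of the 10 genes, of DEPDC1 and of IGFBP1. Each site is printed 5′ to 3′ with the word in capitals and 10 bases on either side.
IGFBP7: agtagtcatgGATAACTacattacctg
IGF2R: tcaggaagagGATAACTccacctacaa
IGFBP1: agagcacggaGATAACTgaggaggagc
DEPDC1: cgtagtctaaGATAACTaactgaatta

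In IGFBP7 the word lies in the 3′ UTR, in exon 5 of 5, with its first base 44 bases after the coding end (GRCh38, chr4:57031267-57031273, minus strand). In IGF2R it lies in coding exon 17 of 48 (chr6:160047798-160047804, plus strand), where the printed bases run across an exon junction, and in IGFBP1 in coding exon 2 of 4 (chr7:45890582-45890588, plus strand). In DEPDC1 it spans the coding end in exon 11 of 11 (chr1:68476930-68476936, minus strand). The word was in 2 of 3 IGFBP7 transcripts and 2 of 7 IGF2R transcripts, and no annotated transcript of the other 8 genes held it. Among tested genes whose 3′ UTR was at least 0.8 times and at most 1/0.8 times as long as that of IGFBP7, 28 of 1399 (2.0%) held the word. Coding sequences within the same relative length of IGF2R held it in 71 of 248 genes (28.6%), and those near the length of IGFBP1 in 48 of 2041 (2.35%). Of the carriers printed above, IGFBP7, IGFBP1 and DEPDC1 were called lower, whereas IGF2R did not pass the test. CRIM1 and FOXO1, from the pathway list described below, were searched likewise, held the word too and were called lower. Not all carriers on that list were lower. A count over its tested genes left out the coding site of IGFBP1. It found the word in 8 of 24 lower genes, 1 of 16 higher (PTPN1) and 2 of 35 uncalled (ADAM28 and CRKL). Since the word was picked from genes that fell in these same libraries, nothing is read from the calls of its carriers.

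Calls are taken from edgeR's quasi-likelihood fit over all tested genes, in which a gene was called when its Benjamini-Hochberg adjusted p was under 0.05. Of the 10 genes, 4 were called lower and 2 higher in siDEPDC1, against 34.4% of all tested genes called in either direction, 17.9% lower and 16.5% higher. Their median log2 fold change was -0.020, against 0.00094 for all tested genes. In 5 of the 10 genes the groups did not overlap, against 37.3% of all tested genes. Nothing about the 10 genes as a set is read from these counts. The lower genes were IGFBP7, IGFBP7-AS1, IGF1R and IRS2, the higher ones were IGFBP3 and IGFBP4, and the interval for IGFBP6, IGF2R, INSR and IRS1 spanned 0.

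**Figure D1:**
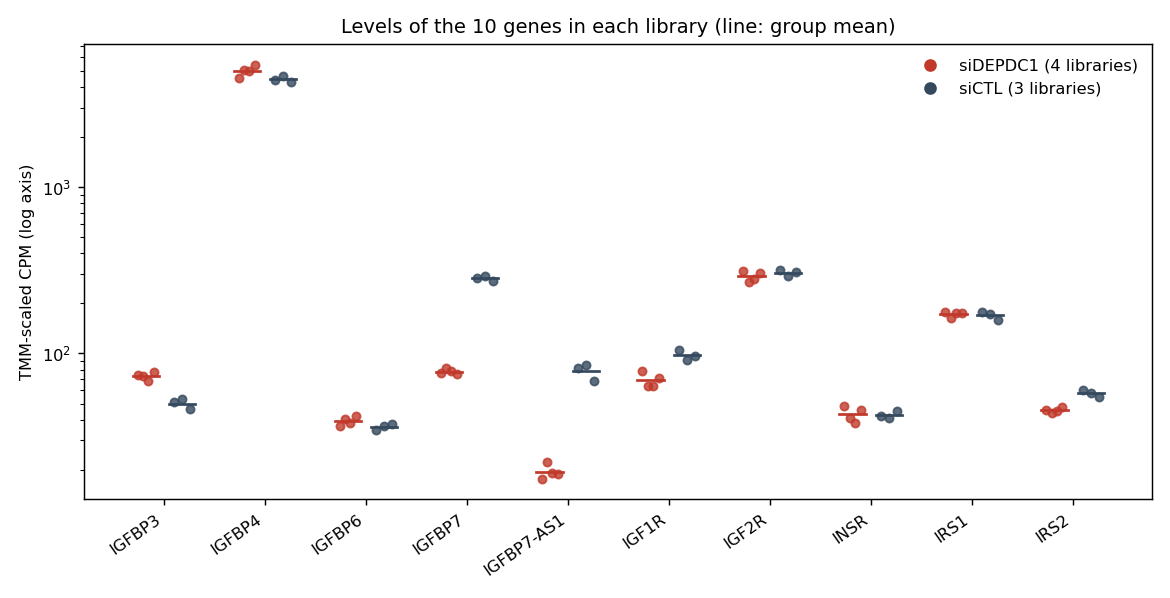
TMM-scaled CPM (log axis) of the 10 genes in the 4 siDEPDC1 libraries (red, left) and the 3 siCTL libraries (dark, right), with a line at each group mean. IGFBP7 and IGFBP7-AS1 show the widest gaps, at 77.8 against 283 CPM and 19.5 against 78.4 CPM. The groups of IGFBP4, IGFBP6, IGF2R, INSR and IRS1 overlap.

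Among the binding proteins, IGFBP7 (ENSG00000163453; GRCh38 chromosome 4, 57030773 to 57110385, minus strand), a secreted protein of the extracellular matrix, had 76.6, 81.8, 78.1 and 74.8 CPM in siDEPDC1 libraries, against 284, 291 and 273 CPM in siCTL libraries. Every siDEPDC1 library lay far below every siCTL library, and the libraries of a group were close together. The means were 77.8 ± 2.94 and 283 ± 9.45 CPM (SD, n = 4 and 3), and the log2 fold change was -1.86 ± 0.056 (SE), so that 27.5% of the transcript level was left. Ordered from the lowest fold change it held rank 13 of the 16583 tested genes. In bulk RNA, fewer cells that express a gene and less RNA per cell cannot be told apart.

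IGFBP7-AS1 (ENSG00000245067; chromosome 4, 57109762 to 57205510, plus strand), a long noncoding RNA annotated head to head with IGFBP7, had 17.7, 22.4, 19.1 and 18.8 CPM in siDEPDC1 libraries, against 81.5, 85.0 and 68.7 CPM in siCTL libraries. Again the groups were widely apart, with siCTL replicate 3 the lowest of its group. The log2 fold change was -2.0 ± 0.082 (SE), and in the same order it held rank 9.

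The 2 genes overlap over 624 bases at their starts (chromosome 4, 57109762 to 57110385), but only 94 of those bases are exon in both, within the coding part of IGFBP7 exon 1. These 94 bases are 4.87% of the annotated exon bases of IGFBP7 and 5.402% of those of IGFBP7-AS1. They are printed because reads from them belong to either gene unless the strand is used, as read along IGFBP7 (chr4:57109877-57109970, minus strand), with no part in capitals.
IGFBP7 exon 1 shared with IGFBP7-AS1: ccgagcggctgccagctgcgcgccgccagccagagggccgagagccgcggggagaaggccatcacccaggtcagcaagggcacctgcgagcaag

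**Figure D2:**
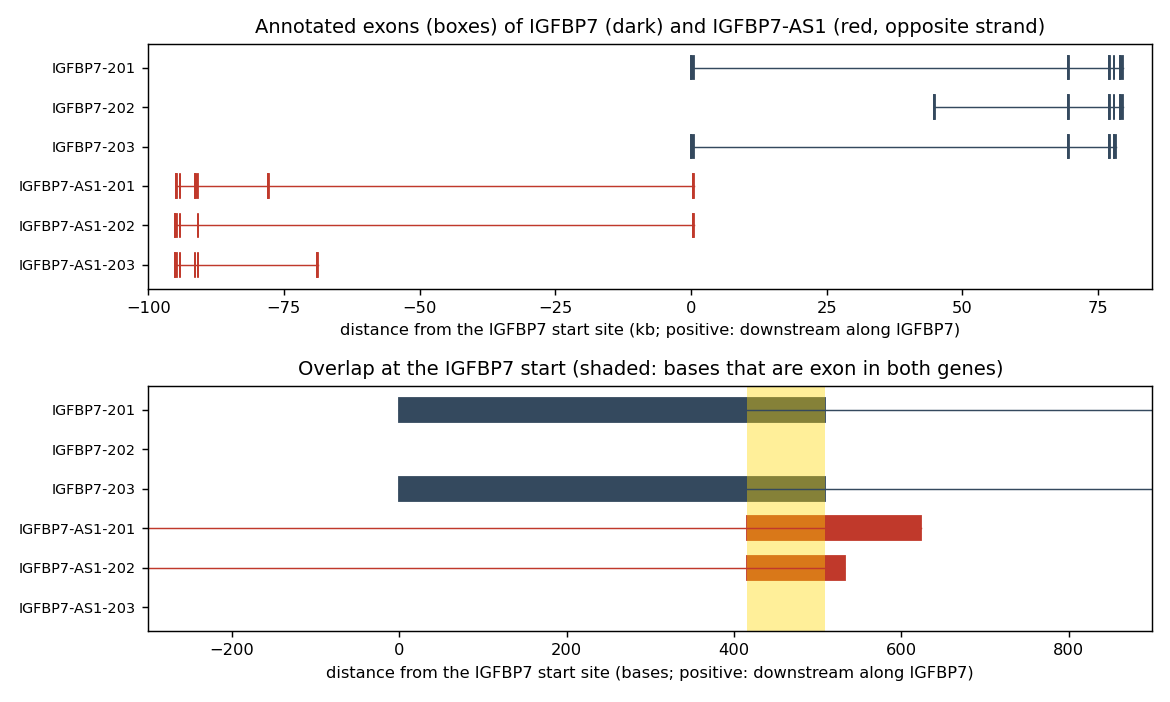
Annotated exons (boxes) of 3 IGFBP7 and 3 IGFBP7-AS1 transcripts by distance from the IGFBP7 start site, in kb (top) and in bases around the start (bottom). The shaded stretch marks the 94 bases that are exon in both genes, and the other IGFBP7-AS1 exons lie outside IGFBP7.

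No source used here states a strand setting for the counting, so reads of the 2 genes cannot be told apart in the shared stretch. The count of IGFBP7-AS1 was 0.231, 0.274, 0.245 and 0.251 times that of IGFBP7 in siDEPDC1 libraries, against 0.286, 0.292 and 0.252 times in siCTL libraries. The ratio was nearly the same in both groups, with the lowest siCTL library inside the siDEPDC1 range. With the counts of both rows summed as 1 gene, the log2 fold change was -1.89 ± 0.057 (SE), close to that of IGFBP7 alone.

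IGFBP3 (ENSG00000146674; chromosome 7, 45912245 to 45921874, minus strand), the main IGF carrier of serum, had 74.1, 72.8, 68.6 and 77.6 CPM in siDEPDC1 libraries, against 50.8, 53.2 and 46.0 CPM in siCTL libraries. All siDEPDC1 libraries were above all siCTL libraries. The log2 fold change was 0.55 ± 0.067 (SE), a 1.47-fold rise. IGFBP1, the gene of a binding protein made mostly in liver that is not among the 10, lies next to it on chromosome 7 (45888357 to 45893668, plus strand), with 18576 bases between them. IGFBP1 went the other way, at 49.8 ± 1.98 CPM in siDEPDC1 and 78.0 ± 3.91 CPM in siCTL libraries (SD, n = 4 and 3), a log2 fold change of -0.65 ± 0.064 (SE). Per kb of exon, the level of IGFBP3 was 0.534 ± 0.0464 times that of IGFBP1 in siDEPDC1 and 0.232 ± 0.0178 times in siCTL libraries (SD), and no siDEPDC1 library overlapped a siCTL library. The size of this ratio depends on the gene length used. With the longest transcript as length, IGFBP3 was at 30.4 and IGFBP1 at 30.1 CPM per kb in siDEPDC1 libraries. In siCTL libraries they were at 20.7 and 47.2 CPM per kb.

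IGFBP4 (ENSG00000141753; chromosome 17, 40443461 to 40457731, plus strand), a binding protein that mostly inhibits IGF action, was the most abundant of the 10 genes. Its level was 4488, 5072, 5002 and 5432 CPM in siDEPDC1 libraries, against 4403, 4614 and 4292 CPM in siCTL libraries. The groups overlapped, since siDEPDC1 replicate 1 fell within the siCTL range. The log2 fold change of 0.17 ± 0.064 (SE) was called, but not without siCTL replicate 1 (0.17) or 3 (0.15) or without siDEPDC1 replicate 2 (0.17), 3 (0.18) or 4 (0.13), nor after a length and GC trend was removed (0.046). IGFBP6 (ENSG00000167779; chromosome 12, 53097436 to 53102345, plus strand), which prefers IGF2, had 36.7, 40.2, 38.2 and 42.3 CPM in siDEPDC1 libraries, against 34.5, 36.6 and 37.6 CPM in siCTL libraries. Its log2 fold change of 0.12 did not pass the test, with a 95% interval of -0.020 to 0.27.

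**Figure D3:**
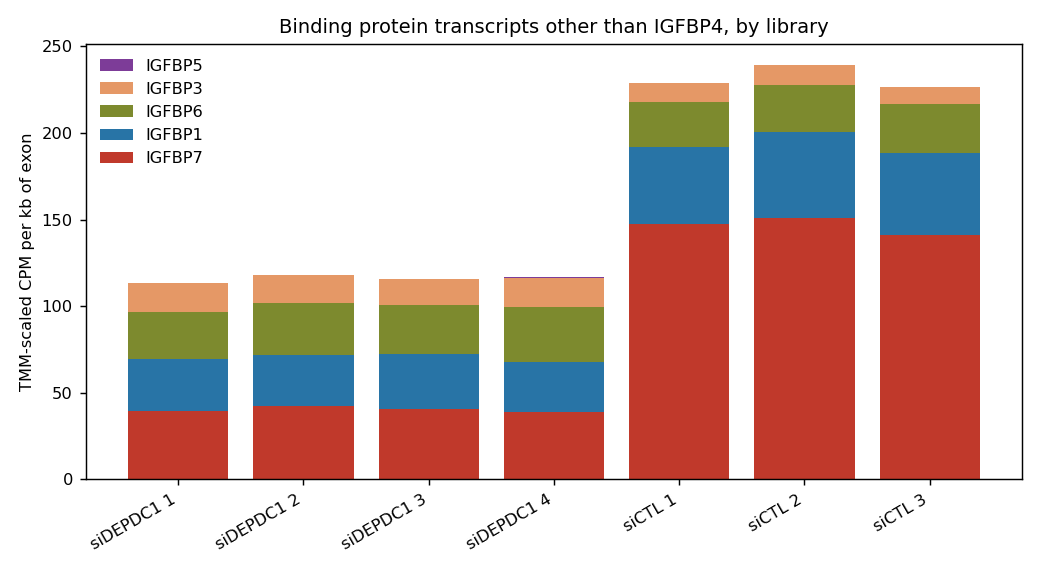
Stacked levels (TMM-scaled CPM per kb of exon) of binding protein transcripts other than IGFBP4 in each siDEPDC1 library (left) and siCTL library (right), with IGFBP2 too low to draw. The summed level is 113 to 118 in siDEPDC1 and 227 to 239 in siCTL libraries, and the IGFBP7 segment is the one that differs most.

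The make-up of the binding protein transcripts is set by these levels. Per kb of exon, IGFBP4 made up 95.1 ± 0.31% of the summed IGFBP1 to IGFBP7 level in siDEPDC1 and 89.7 ± 0.0931% in siCTL libraries (SD). Apart from IGFBP4, the summed level was 116 ± 1.93 CPM per kb in siDEPDC1 and 232 ± 6.71 CPM per kb in siCTL libraries. Within that remainder IGFBP7 was 34.7 ± 1.1% in siDEPDC1 and 63.2 ± 1.03% in siCTL libraries. IGFBP6 was 25.2 ± 1.30% of it in siDEPDC1 and 11.6 ± 0.608% in siCTL libraries, although its own level did not pass the test. IGFBP7 was thus the largest part of the remainder in both groups.

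The receptor gene IGF1R (ENSG00000140443; chromosome 15, 98648539 to 98964530, plus strand), which encodes the tyrosine kinase receptor of IGF1 and IGF2, had 78.1, 63.8, 63.8 and 70.9 CPM in siDEPDC1 libraries, against 105, 90.9 and 96.8 CPM in siCTL libraries. Every siDEPDC1 library was below every siCTL library, with siDEPDC1 replicate 1 nearest to them. The log2 fold change was -0.50 ± 0.068 (SE), or 70.9% of the siCTL level. INSR (ENSG00000171105; chromosome 19, 7112255 to 7294034, minus strand), the insulin receptor gene and closest relative of IGF1R among the 10, had 48.3, 41.1, 38.3 and 45.8 CPM in siDEPDC1 libraries, against 41.8, 40.7 and 45.4 CPM in siCTL libraries. Those groups overlapped fully, and the log2 fold change of 0.032 had a 95% interval of -0.12 to 0.18. Per kb of exon, IGF1R was 1.20 ± 0.0423 times the level of INSR in siDEPDC1 and 1.72 ± 0.149 times in siCTL libraries (SD), with no overlap.

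IGF2R (ENSG00000197081; chromosome 6, 159969099 to 160113507, plus strand), a receptor without kinase activity, had 313, 268, 281 and 303 CPM in siDEPDC1 libraries, against 315, 291 and 309.8 CPM in siCTL libraries. The ranges overlapped, and the log2 fold change was -0.069 with a 95% interval of -0.18 to 0.040. AIRN, annotated on the opposite strand at IGF2R, could share reads with it if exons overlap and strand was not used. That overlap was not checked.

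**Figure D4:**
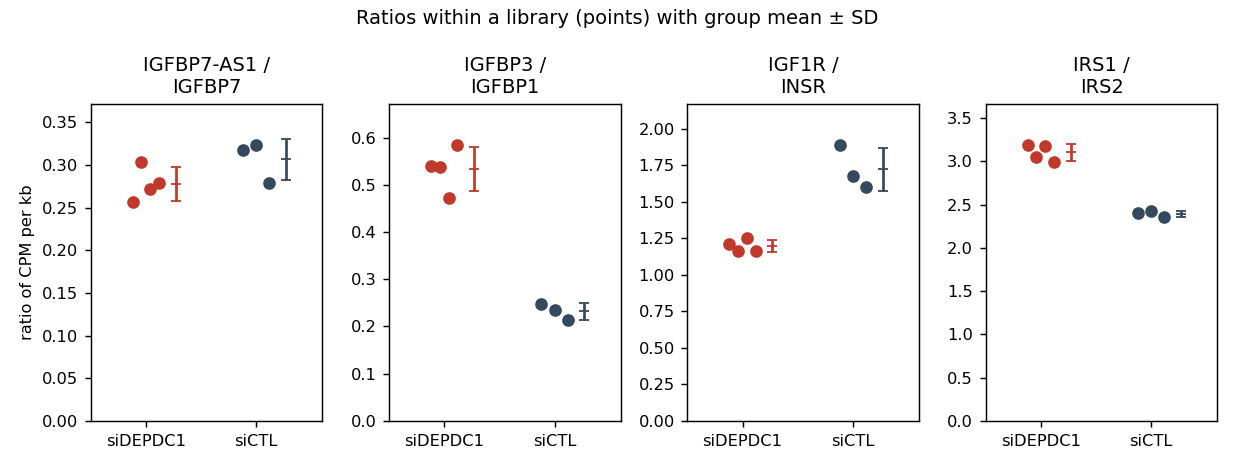
Ratios of CPM per kb of exon within each library for 4 pairs of genes, siDEPDC1 (red, left) and siCTL (dark, right), with group mean ± SD beside the points. IGFBP3 over IGFBP1 (0.534 against 0.232) and IRS1 over IRS2 (3.10 against 2.39) are higher in every siDEPDC1 library, IGF1R over INSR (1.20 against 1.72) is lower in each, and IGFBP7-AS1 over IGFBP7 overlaps.

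Of the adaptors, 1 did not pass the test and 1 was lower. IRS1 (ENSG00000169047; chromosome 2, 226731317 to 226799759, minus strand), which couples both receptors to PI3-kinase, had 178, 164, 174 and 175 CPM in siDEPDC1 libraries, against 176, 172 and 158 CPM in siCTL libraries. These values overlapped, and the log2 fold change of 0.029 had a 95% interval of -0.080 to 0.14. IRS2 (ENSG00000185950; chromosome 13, 109752698 to 109786568, minus strand), a second such adaptor, had 45.6, 43.9, 44.8 and 47.8 CPM in siDEPDC1 libraries, against 60.0, 58.2 and 55.0 CPM in siCTL libraries. Every siDEPDC1 library was lower, by a log2 fold change of -0.34 ± 0.066 (SE). Per kb of exon, IRS1 was 3.10 ± 0.0946 times the level of IRS2 in siDEPDC1 and 2.39 ± 0.0373 times in siCTL libraries (SD).

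FOXO transcription factors are inhibited by insulin signalling, and IRS2 is known as one of their targets. FOXO genes did not move one way, and their part in the IRS2 result was not tested. FOXO1, which like FOXO3 was named after its values were seen, was at 7.50 ± 0.215 CPM in siDEPDC1 and 12.2 ± 0.472 CPM in siCTL libraries (SD, n = 4 and 3), a log2 fold change of -0.71 ± 0.11 (SE). The more abundant FOXO3 was at 45.5 ± 3.08 CPM in siDEPDC1 and 49.9 ± 1.82 CPM in siCTL libraries and did not pass the test, and FOXO4 was called higher, with a log2 fold change of 0.37 ± 0.11 (SE). The insulin response element core CAAAACAA was searched on both strands in RefSeq promoter windows of 250 bases before to 50 bases after a gene's start. For 9 of the 10 genes, all but IGFBP7, a window was present, and IGFBP1 had none either, so neither could be searched. Among those 9 the core was in the window of IRS2 alone, against 589 of 35116 windows (1.68%) overall. TATAAA, searched likewise and unable to overlap that core, was found in IGFBP4 alone, against 11.5% of windows. The 80 bases just before the IRS2 start are shown with the core, which appears as its reverse complement on this strand, in capitals (GRCh38.p14, chr13:109786584-109786663, minus strand).
IRS2 upstream: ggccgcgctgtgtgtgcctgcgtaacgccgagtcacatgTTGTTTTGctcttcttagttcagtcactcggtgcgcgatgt

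A match of these letters is no evidence of a bound factor, and its absence elsewhere speaks only of those windows.

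Per kb of exon the 10 genes formed a wide scale. IGFBP4 stood first, at 2272 ± 177 CPM per kb in siDEPDC1 and 2017 ± 74.5 CPM per kb in siCTL libraries (SD, n = 4 and 3). IGFBP7 came second, at 40.3 ± 1.52 in siDEPDC1 and 147 ± 4.90 CPM per kb in siCTL libraries. IGF1R, INSR and IRS2 were the lowest 3 in both groups, between 4.15 and 5.59 CPM per kb in siDEPDC1 and between 4.08 and 7.09 CPM per kb in siCTL libraries. In siDEPDC1 libraries the ranges of neighbours overlapped for IRS1 with IGF2R, IGF2R with IGFBP3, IRS2 with IGF1R, and IGF1R with INSR. In siCTL libraries they overlapped for IGF2R with IRS1 and for IRS2 with IGF1R. IGFBP7-AS1 held rank 7 in siDEPDC1 and rank 3 in siCTL libraries. With the longest annotated transcript as the length, 6 of the 10 genes held their place in the siCTL order, while IGFBP3 changed places with IRS1 and IGF1R with IRS2. That length is 2412 bases in place of 4571 for IGFBP3 and 12235 in place of 13941 for IGF1R.

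Within the siDEPDC1 group, replicate 1 was the highest library for IGF1R, IGF2R, INSR and IRS1, the 4 genes with more than 9000 bases of exon, and the lowest for IGFBP4 and IGFBP6. Over all 2241 tested genes of at least 9000 exon bases, replicate 1 deviated from the mean of the other 3 siDEPDC1 libraries by a median log2 of 0.092, against -0.0050 over 14155 shorter genes. Without that library IGF1R had a log2 fold change of -0.56 and IGFBP4 of 0.22, and both stayed called. After a trend with transcript length and GC content was removed from each library, an alternative chosen after seeing the data, IGF1R was at -0.41.

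By the root mean square difference in log2 CPM, centred on the siCTL mean, over 7 libraries and 12087 named genes with a mean of at least 5 CPM, the patterns most like that of IGFBP7 were those of NCEH1 (0.089), SGCB (0.091) and SLC44A1 (0.093). NCEH1, a cholesterol ester hydrolase, was at 76.8 ± 5.35 CPM in siDEPDC1 and 295 ± 9.30 CPM in siCTL libraries (SD, n = 4 and 3). For IGFBP3 the nearest were RAB40B (0.038), the nuclear receptor gene NR1D1 (0.043) and the transcription factor gene KLF13 (0.046). NR1D1 was at 34.9 ± 1.45 CPM in siDEPDC1 and 23.3 ± 0.540 CPM in siCTL libraries. Since values are centred on the siCTL mean, this measure rests largely on the change between groups, so a similar fold change is built in. It does not show that these genes vary together among the libraries of a group.

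The rest of the pathway was read from a list of 93 further genes, also compiled with earlier results known. Of these 75 were tested, 24 were lower and 16 higher, against 17.9% lower and 16.5% higher among all tested genes, and the median log2 fold change was 0.019, against 0.00094. Nothing about the list or its roles as sets is read from these counts or from those by role below. The ligand genes had no or almost no counts in these libraries at this depth. IGF2 and INS had no count in any library, which allows a level of up to 0.390 CPM in the shallowest siDEPDC1 library and 0.256 CPM in the shallowest siCTL library. This limit covers counting error only, and not reads that the unstated counter may have left out. IGF1 and the receptor relative INSRR were at 0 in every siDEPDC1 library, and at no more than 0.147 CPM in any siCTL library.

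**Figure D5:**
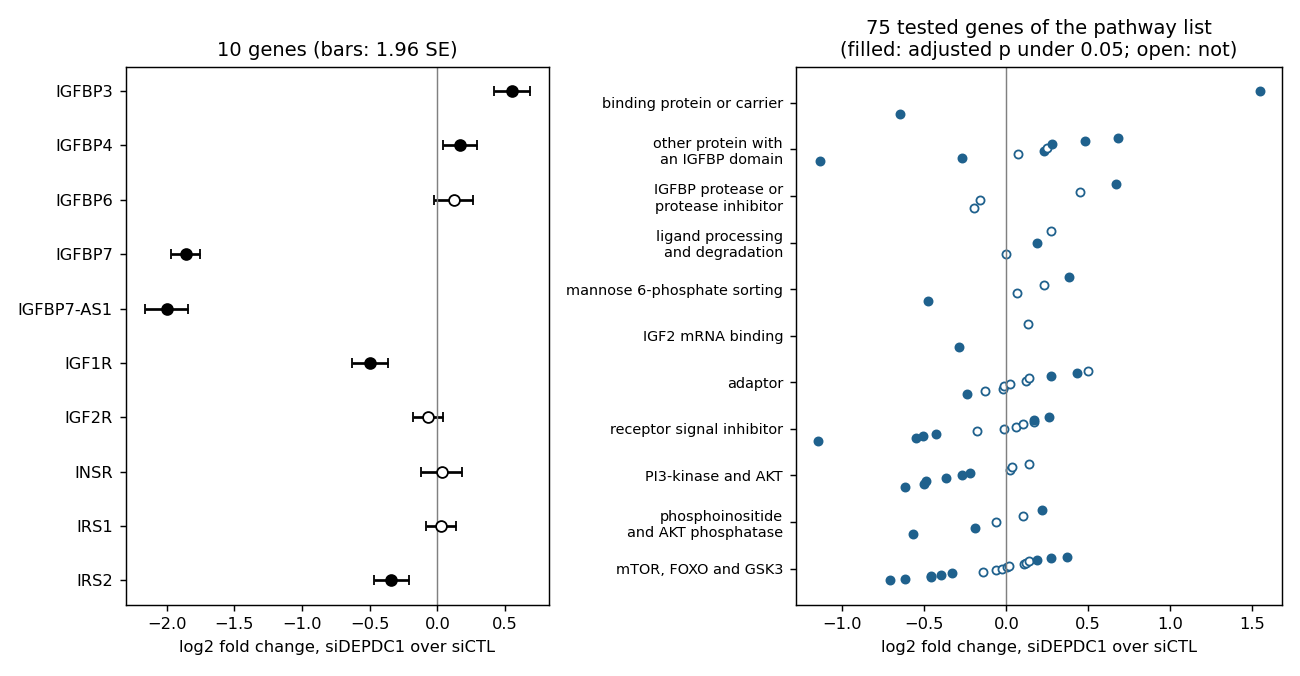
Log2 fold changes (siDEPDC1 over siCTL) of the 10 genes with 95% interval bars (left) and of the 75 tested pathway list genes by role (right), with filled points for called genes. Of the 9 tested PI3-kinase and AKT genes 6 are filled and left of 0, and the other 3 are open and right of 0.

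Other binding proteins and relatives moved both ways. IGFBP5, a matrix-bound binding protein, rose at a low level, to 2.12 ± 0.383 CPM in siDEPDC1, against 0.732 ± 0.139 CPM in siCTL libraries (SD, n = 4 and 3). Among 8 tested genes that share the IGFBP domain outside the family, 2 were lower and 4 higher. CRIM1, a membrane protein that binds BMPs, was at 168 ± 8.75 CPM in siDEPDC1 and 369 ± 5.997 CPM in siCTL libraries, and KAZALD1 had a log2 fold change of -0.27 ± 0.11 (SE), whose call was lost without siCTL replicate 1 (-0.20) or 2 (-0.23) or siDEPDC1 replicate 1 (-0.24) or 3 (-0.20). That call was also lost with DESeq2, limma-voom, DESeq2 size factors, library totals alone or a stricter count filter. IGFBPL1 rose 1.61-fold, and CCN1, a matricellular protein, 1.21-fold. STC1, a stanniocalcin that inhibits the IGFBP4-cleaving protease PAPPA, rose to 90.2 ± 2.61 CPM in siDEPDC1, against 56.8 ± 2.71 CPM in siCTL libraries. PAPPA, named after its values were seen because it cleaves IGFBP4, was at 33.4 ± 2.86 CPM in siDEPDC1 and 37.4 ± 3.35 CPM in siCTL libraries, and did not pass the test. FURIN, a convertase that processes the receptor precursors, had a log2 fold change of 0.19 ± 0.072 (SE), not called without siCTL replicate 1 (0.20) or 3 (0.15) or siDEPDC1 replicate 4 (0.12). Nor was it called with DESeq2, no count filter, a replicate block or the length and GC trend removed.

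Of 4 genes of mannose 6-phosphate sorting, the pathway that IGF2R serves, M6PR, the smaller receptor of that tag, rose 1.30-fold, and GNPTAB, which makes the tag, fell 1.40-fold. IGF2BP2, which binds IGF2 messenger RNA among others, fell 1.22-fold. Among 10 tested adaptors GRB2 and SH2B1 rose 1.35-fold and 1.21-fold, and SOS1, the RAS exchange factor that GRB2 brings to receptors, fell 1.18-fold, a call lost after the length and GC trend was removed (-0.10). Of 11 tested genes listed as receptor signal inhibitors, a role that not each of them need have here, 4 were lower and 2 higher. SOCS2 was at 4.73 ± 0.471 CPM in siDEPDC1 and 10.7 ± 0.592 CPM in siCTL libraries, and ENPP1, a membrane glycoprotein that can inhibit INSR, fell 1.46-fold. SOCS3 and the phosphatase gene PTPN1 rose 1.20-fold and 1.13-fold, but SOCS3 was not called without siCTL replicate 3 (0.19 on the log2 scale), nor PTPN1 without siCTL replicate 2 or 3 (0.16 each).

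Of the 9 tested PI3-kinase and AKT genes 6 were lower and 0 higher, against 17.9% lower and 16.5% higher among all tested genes, with a median log2 fold change of -0.27, and 5 to 6 were lower and 0 to 1 higher under the alternatives. PIK3CA, a catalytic subunit, was at 37.8 ± 4.07 CPM in siDEPDC1 and 58.2 ± 2.96 CPM in siCTL libraries (SD, n = 4 and 3). Among 5 lipid and AKT phosphatases INPP4B and PHLPP1 had log2 fold changes of -0.57 ± 0.081 and -0.19 ± 0.072 (SE), and PHLPP2 of 0.22 ± 0.073. PHLPP1 was not called without siCTL replicate 1 (-0.16) or 3 (-0.18) or siDEPDC1 replicate 1 (-0.17), 2 (-0.18) or 3 (-0.20), nor PHLPP2 without siCTL replicate 2 (0.21). With no count filter neither was called, and PHLPP1 was also not called with DESeq2 or library totals alone. In the mTOR, FOXO and GSK3 group 6 were lower and 3 higher of 17, with 6 to 7 lower and 2 to 5 higher under the alternatives. Without siDEPDC1 replicate 1 that group had 7 lower and 5 higher. MTOR and RICTOR, a kinase and its partner in complex 2, fell 1.38-fold and 1.53-fold, while RPS6KB2 and FOXO4 rose 1.21-fold and 1.30-fold.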

How the data were processed

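RNA sequencing counts from 7 libraries were used. The authors deposited raw counts per Ensembl gene and library, neither normalized nor pooled as far as the values show. The submitters' processing notes list GRCh38 as build, and DESeq2, FastQC and STAR 2.7.9a as tools whose roles are unstated. The read counter and the annotation release and strand setting it used were not given in the sources used here. For 60419 identifiers a symbol was found, and 58444 were in GENCODE release 29 (GRCh38), the source of positions, exon lengths and transcript sequences. Promoter sequences are from RefSeq (GRCh38.p14).

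Counts were filtered with filterByExpr and fitted with edgeR 4.0.16 (R 4.3.3; TMM, glmQLFit with robust estimation, glmQLFTest, two-sided, group as the only term), with Benjamini-Hochberg adjustment over 16583 genes at 0.05. The fit was tested on simulated data. The SE of a log2 fold change is that implied by the F statistic, and 95% intervals are normal intervals from that SE. The genes and lists were chosen with earlier results of these data known. Named pathway genes were up to 2 lower and 2 higher called genes per role with the smallest p, plus ligand and receptor genes, and 3 genes each most like IGFBP7 and IGFBP3. A gene that this rule names is not reported here. Alternatives were other scalings and filters, DESeq2 1.42.0, limma-voom (limma 3.58.1), a replicate block, each library left out, the IGFBP7 pair summed, another gene length, and a length and GC trend removed. The likeness measure used log2(CPM + 0.5).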

Additional observations from a re-analysis of the deposited data

How the results depend on the processing

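Over 16 alternatives IGFBP3, IGFBP7, IGFBP7-AS1, IGF1R and IRS2 kept their direction and call. The number of the 10 genes called higher was 1 in place of 2 with the length and GC trend removed, with the replicate block and in the same 6 libraries with no replicate block, and ran from 1 to 2 when single libraries were left out, always through IGFBP4. Its log2 fold change was 0.13 with and without the block. The libraries share only a number, and deviations of same-numbered libraries correlated at -0.116 to 0.0030. Against the same 6 libraries with no block, the block changed no call among the 10 genes. Under the block 4729 genes were called, against 5394 in the same 6 libraries with no block and 5707 in all. Uncalled values that changed sign were IGFBP6 (-0.0094) and IGF2R (0.053) with the trend removed, INSR without siCTL replicate 2 (-0.0039) or siDEPDC1 replicate 1 (-0.019), and IRS1 without siCTL replicate 3 (-0.017). With single libraries left out INSR ran from -0.019 to 0.083 and IRS1 from -0.017 to 0.061. The cause was not tested. Of 27 named pathway genes 20 kept their call throughout, and the others lost it in 31 of 431 values. The summed IGFBP7 pair gave -1.89, and 6 of 10 genes held their place with the longest transcript as length. The shallowest library, siDEPDC1 replicate 3, had 7690583 counts, which limits low genes such as IGFBP5.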
